A study of Mus musculus with 8 samples.

Results

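The transcripts of 10 antioxidant enzymes were examined in sorted tumor T cells: the superoxide dismutases *Sod1*, *Sod2* and *Sod3*, the peroxide-removing enzymes *Cat*, *Gpx1*, *Gpx4* and *Prdx1*, the thioredoxin pair *Txn1* and *Txnrd1*, and heme oxygenase *Hmox1*. The genes were taken by symbol, and all 10 were among the 11233 genes of the deposited table. They were chosen by their function with the expression values of the CCR8+ against CCR8- comparison already known, so their differences between the sorted populations are given as a description without a test. Bulk RNA-Seq had been run on 8 libraries, 4 of CCR8+ and 4 of CCR8- CD4+ Tconv cells, all sorted as negative for the EGFP reporter. Every animal, in both groups, was a Foxp3-EGFP_DTR mouse with a subcutaneous tumor of B16-F10, a mouse melanoma cell line, and every animal received diphtheria toxin (DTx). EGFP and the toxin receptor follow the activity of *Foxp3* in these mice, so that DTx removes Treg cells, and a cell that does not transcribe *Foxp3* escapes both the toxin and the EGFP gate. DTx was given as 4 injections of 1 μg between day 7 and day 13 after implantation. The methods and the figure legend for these populations put the sort at day 16, and the legend has the 4 replicates taken on 1 day. The title of the matching supplementary table gives day 18 instead. No untreated group was included. The methods give an age of 8 to 14 weeks for the mice of all experiments, and do not say whether animals were pooled for these libraries. The labels do not say that the libraries of a group came from separate animals, although the study calls them biological replicates, so the spread given is that between libraries.

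The libraries held between 12067780 and 17802628 reads. The values, here called normalized counts, are read counts divided by 1 factor per library, and 3 reads, the limit that a count of 0 allows, came to 2.21 to 3.42 of them depending on the library. This limit reflects counting error alone, since PCR copies were not collapsed to molecules. T cell identity was plain, with all 12 T cell markers read. *Cd4* was at 8431 ± 1494 normalized counts in CCR8- cells and at 8330 ± 721 in CCR8+ cells (SD, n = 4 each). *Ccr8*, the gene of the sorting marker, was higher in each CCR8+ library than in any CCR8- library. Transcripts of other cells were also present and uneven, with 12 of 12 macrophage and monocyte markers summing to between 86.7 and 83824 normalized counts in CCR8- libraries and between 3718 and 28579 in CCR8+ libraries. The 2 CD8 genes summed to between 980.1 and 3805 in CCR8- and between 478 and 1227 in CCR8+ libraries. All 7 melanoma markers were read, with sums between 105 and 17389 in CCR8- and between 232 and 21841 in CCR8+ libraries. The B cell markers in the table (4 of 5) summed to between 29.4 and 365 in CCR8- and between 0 and 447 in CCR8+ libraries, carried by *Cd79a* and *Cd79b*. The markers of neutrophils (2 of 6 in the table), dendritic cells (3 of 5) and endothelial cells (2 of 6) each summed to at most 721 in any library, and the 1 erythroid gene in the table, *Alas2*, reached 677 in CCR8+ replicate 1. CCR8- replicate 1 stood apart, since it lacked every read of 242 genes whose level was 100 normalized counts or more in the other 7 libraries. The same was true of 44 genes for CCR8+ replicate 1, of 36 for CCR8+ replicate 3 and of 0 for the remaining libraries.

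Respiring cells leak electrons to oxygen, which makes superoxide. Superoxide dismutases turn superoxide into hydrogen peroxide, in the cytosol by the copper and zinc enzyme SOD1, in mitochondria by the manganese enzyme SOD2, and outside the cell by SOD3, a secreted enzyme that binds the extracellular matrix. Catalase, glutathione peroxidases and peroxiredoxins then remove hydrogen peroxide, GPX4 removes lipid peroxides and so guards against ferroptosis, and the last step draws on glutathione or on thioredoxin, which thioredoxin reductase recharges with NADPH. Activated T cells produce reactive oxygen species as signals and depend on these enzymes to limit them. Many of these genes can be induced by the transcription factor NRF2 through the antioxidant response element.

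That element is shown for the members in which its core letters were found, because NRF2 can induce many of these genes through it. RefSeq promoters on GRCm38.p6 (250 bases before to 50 after the start site) were at hand for 8 of the 10 members, all but *Sod3* and *Hmox1*, and these had 13 promoters in all. The core TGACNNNGC was searched on both strands, and 12.4% of all 32851 promoters of that length held it. It was found in 3 members, each time on the strand opposite to the gene, and the capitals below mark it as it reads along the gene.
Prdx1 (chr4:116685456-116685485, + strand): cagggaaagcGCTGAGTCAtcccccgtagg
Txnrd1 (chr10:82859104-82859133, + strand): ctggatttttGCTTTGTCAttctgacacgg
Sod1 (chr16:90220696-90220725, + strand): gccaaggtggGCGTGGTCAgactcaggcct
The match lay 133 bases before the start site in *Prdx1*, 92 in 1 of the 3 promoters of *Txnrd1* and 56 in *Sod1*. In *Prdx1* it read TGACTCAGC on its own strand, which also contains the AP-1 letters TGACTCA. A match describes the sequence only, and nothing was measured at these sites.

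The members were read at very different levels. Per kilobase of annotated exon (GENCODE M21), *Txn1*, the small protein that passes electrons to peroxiredoxins, was first with a level of 6470 ± 1740 normalized counts per kilobase (SD over 8 libraries). It was followed by *Gpx1* (4800 ± 1670, same scale, n = 8), *Gpx4* (4470 ± 1770, n = 8) and *Prdx1* (3840 ± 796, n = 8). Each of these 4 overlapped its neighbor in the order over the libraries, although *Txn1* was above *Gpx1* in 8 of 8. A gap then followed, as the lowest *Prdx1* library (2850 per kilobase) was above the highest *Sod1* library (651). *Sod1* (461 ± 127 per kilobase, n = 8), *Hmox1* (405 ± 288), *Cat* (391 ± 147), *Sod2* (192 ± 55.8) and *Txnrd1* (158 ± 23.4) formed an overlapping lower tier. *Sod3* was last with 12 ± 20.0 per kilobase (SD, n = 8). These lengths come from a later genome build than the alignment and count all annotated exons, so the order is approximate. *Gpx4*, *Prdx1*, *Txn1* and *Sod1* also belong to families with processed copies elsewhere in the genome, and their values are uncertain to the extent that reads shared with a copy were dropped. No exon of the 10 genes overlapped one of another annotated gene.

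**Figure D1:**
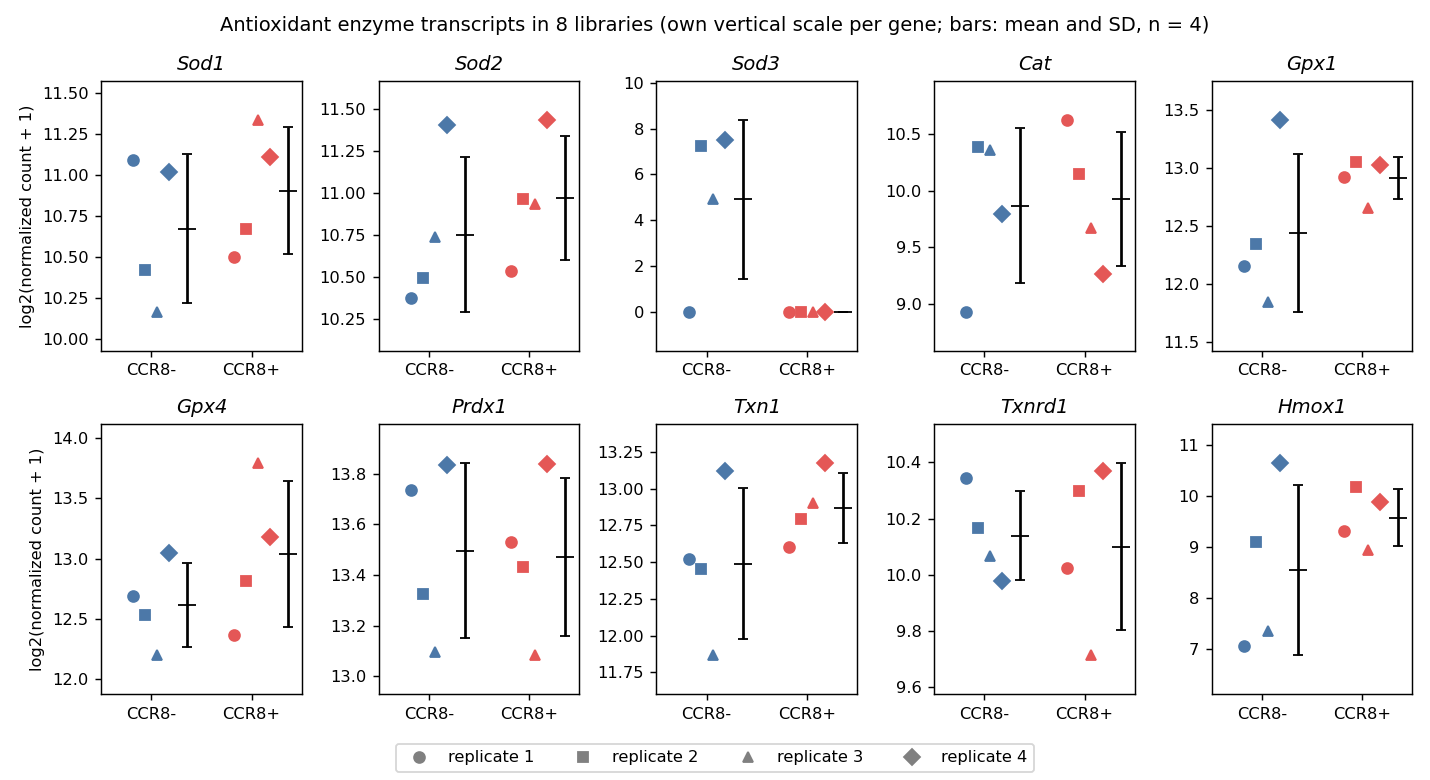
Level of each antioxidant transcript in the 4 CCR8- (blue) and 4 CCR8+ (red) libraries, as log2(normalized count + 1) on a vertical axis of its own for each gene. Symbols stand for replicate numbers and black bars for the mean and SD of 4 libraries. The groups overlap for all 10 genes, and *Sod3* is at 0 in all 4 CCR8+ libraries.

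*Sod1*, on chromosome 16 from 90220754 to 90226329 (GRCm38, as for all positions here), encodes the cytosolic dismutase. It had 2182, 1367, 1144 and 2068 normalized counts in CCR8- replicates 1 to 4, and 1444, 1627, 2584 and 2209 in CCR8+ replicates 1 to 4. The groups covered the same range apart from CCR8- replicates 2 and 3 at the low end and CCR8+ replicates 3 and 4 at the top. The log2 difference, CCR8+ minus CCR8- on log2(normalized count + 1), was 0.23 (standard error 0.28), less than the SD of 0.42 between libraries.

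*Sod2* (chromosome 17, 13006846 to 13040063) encodes the mitochondrial enzyme. Its values were 1327, 1441, 1705 and 2713 normalized counts in CCR8- and 1485, 1998, 1956 and 2772 in CCR8+ replicates 1 to 4. Replicate 4 was the highest library in both populations, and the CCR8+ library was the higher one of 4 of 4 same-numbered pairs. The margin was small, at a log2 difference of 0.22 (standard error 0.28).

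*Sod3*, on chromosome 5 from 52363791 to 52371418, encodes the secreted dismutase and had a pattern that no other member shared. It had 0, 151, 29.8 and 178 normalized counts in CCR8- replicates 1 to 4, from 0, 205, 34 and 157 reads. In the 4 CCR8+ libraries there were 0 reads, which by counting error alone allows a level of up to 3 reads in each. CCR8- replicate 1 was also at 0, so the groups met at 0 and were not separated, and CCR8- replicates 2 and 4 carried 91.4% of the reads. With 3 reads in each CCR8+ library as the floor, the CCR8- mean was at least 30.4-fold higher than the CCR8+ level. That mean was 89.7 ± 87.9 normalized counts (SD, n = 4). CCR8+ replicates 1 and 3 lacked every read of 44 and 36 genes that were well read in all other libraries. The bound does not allow for such losses or for the spread among the CCR8- libraries. Without CCR8- replicate 4 this bound was at least 20.4-fold and without CCR8- replicate 1 at least 40.6-fold. The fitted log2 difference of −4.92 (standard error 1.86) depends on the pseudocount and is no bound. It was the one difference of the 10 larger than the SD between libraries (2.46). That SD pools both groups, and the CCR8+ libraries, all at 0, add no spread to it, so nothing is read from this comparison.

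*Sod3* had a mean of 44.9 normalized counts and was at 0 in 5 libraries. Of the 985 tested genes with a mean between 30 and 60, 48 were at 0 in 5 or more libraries (4.87%). Over all tested genes, 13 of 11032 (0.118%) were at 0 in every CCR8+ library and above 0 in at least 3 CCR8- libraries as *Sod3* was, and 8 genes had the opposite pattern. The contrast with the intracellular enzymes lay in detection, because each of those 9 genes was read in 8 of 8 libraries, with never fewer than 134 reads.

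Markers of other cells moved with *Sod3* in part. Of 4 NK cell markers 3 were in the table, and they had summed levels of 0, 24.3, 221 and 299 normalized counts for CCR8- replicates 1 to 4. For CCR8+ the sum was 0 in replicates 1, 2 and 3, and 14.8 in replicate 4. *Klrb1c* was at 0 in the same 5 libraries as *Sod3*. *Ncr1* was at 0 in these and also in CCR8- replicate 2, the library with the most *Sod3* reads, and *Klri2* was read only in CCR8- replicate 4 (43.2) and CCR8+ replicate 4 (14.8). The order among the other CCR8- libraries differed, as replicate 3 had 221 for the NK markers and 29.8 for *Sod3*, and replicate 2 had 24.3 and 151. Whether NK cells had a part in the *Sod3* reads was not tested, and in bulk libraries fewer cells of a type cannot be told apart from less RNA per cell. For fibroblasts and pericytes 6 of 8 markers were in the table, without *Pdgfra* and *Pdgfrb*. Their sums were 23.6, 1517, 0 and 641 for CCR8- replicates 1 to 4, and 53.0, 93.2, 13.7 and 1515 for CCR8+ replicates 1 to 4. CCR8- replicates 2 and 4 were thus high for both these markers and *Sod3*, and CCR8- replicate 1 was low for both, whereas CCR8+ replicate 4 was high for the markers with *Sod3* at 0 and CCR8- replicate 3 had *Sod3* reads with the markers at 0. The melanoma markers summed to 105, 4413, 5574 and 17389 for CCR8- replicates 1 to 4, lowest and highest in the same libraries as *Sod3*. For CCR8+ replicates 1 to 4 they summed to 308, 5177, 232 and 21841, with *Sod3* at 0 throughout. The part of these cells in the *Sod3* values was not tested.

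The genes closest to *Sod3* in pattern, by Pearson's r on log2(normalized count + 1) over the 8 libraries, were *C330013E15Rik* (0.966), *Ctnnal1* (0.959), *Tbc1d16* (0.943), *Tnp2* (0.942) and *Gm973* (0.934). The first 3 were also at 0 in all CCR8+ libraries and in CCR8- replicate 1, with no value above 57.9 elsewhere. *Tnp2* was read in every library, between 67.0 and 164 normalized counts in CCR8- and between 41.1 and 66.2 in CCR8+ cells. All these points share the 8 libraries and their dropouts, so the coefficients describe likeness and nothing more.

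*Cat* (chromosome 2, 103453849 to 103485160) encodes catalase, which splits hydrogen peroxide without a cofactor to recharge. It had 486, 1344, 1315 and 889 normalized counts in CCR8- replicates 1 to 4 and 1586, 1133, 813 and 614 in CCR8+ replicates 1 to 4. The highest and the lowest library shared the number 1, and in the other 3 pairs the CCR8+ library was the lower one. The log2 difference of 0.06 (standard error 0.40) changed sign with single libraries, and was −0.26 without CCR8- replicate 1, −0.18 without CCR8+ replicate 1 and −0.02 without CCR8+ replicate 2.

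*Gpx1* (chromosome 9, 108338903 to 108340343) and *Gpx4* (chromosome 10, 80047166 to 80056439) encode selenium-containing peroxidases, the first for hydrogen peroxide and the second for lipid peroxides. *Gpx1* had 4559.6, 5205, 3661 and 10953 normalized counts in CCR8- and 7741, 8472, 6429 and 8356 in CCR8+ replicates 1 to 4. The CCR8+ libraries were close together and above 3 of the 4 CCR8- libraries, but CCR8- replicate 4 was the highest of all. *Gpx4* had 6616, 5927, 4701 and 8443 in CCR8- and 5281, 7227, 14222 and 9278 in CCR8+ replicates 1 to 4, with CCR8+ replicate 3 far above the rest. The log2 differences were 0.47 (standard error 0.31) for *Gpx1* and 0.42 (standard error 0.31) for *Gpx4*, both within the SD between libraries. Without CCR8- replicate 4 the value for *Gpx1* was 0.80, and without CCR8+ replicate 3 that for *Gpx4* was 0.17.

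*Prdx1* (chromosome 4, 116685544 to 116700822), a cytosolic peroxiredoxin, showed hardly any offset between the populations. It had 13619.8, 10258, 8742 and 14586 normalized counts in CCR8- and 11831, 11059, 8671 and 14635 in CCR8+ replicates 1 to 4. Same-numbered libraries were alike for numbers 2, 3 and 4, with log2 differences of 0.11, −0.012 and 0.0049. Over all libraries the log2 difference was −0.03 (standard error 0.25).

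*Txn1* (chromosome 4, 57943373 to 57956411) had 5873, 5604, 3732 and 8924 normalized counts in CCR8- and 6218, 7110.4, 7664 and 9259 in CCR8+ replicates 1 to 4. It was higher in the CCR8+ library of 4 of 4 pairs, with most of the offset in pair 3 (log2 difference 1.04, against 0.08, 0.34 and 0.05 in pairs 1, 2 and 4). The difference over all libraries was 0.38 (standard error 0.27) against an SD of 0.40. Its reductase gene *Txnrd1* (chromosome 10, 82833951 to 82897712) was the steadiest member, with 1299, 1149.6, 1072 and 1007 in CCR8- and 1039.7, 1257, 838 and 1321 in CCR8+ replicates 1 to 4, a span of 1.58-fold. Its log2 difference was −0.04 (standard error 0.24), and *Txn1* and *Txnrd1* moved the same way in 2 of 4 pairs.

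*Hmox1* (chromosome 8, 75093621 to 75100589) encodes the inducible enzyme that breaks heme into iron, carbon monoxide and biliverdin. It varied most among the intracellular members, over 12.2-fold, with 132, 548, 162 and 1609 normalized counts in CCR8- and 636, 1159, 489 and 939 in CCR8+ replicates 1 to 4. The CCR8- libraries spanned the whole range, the lowest and the highest library among them, and the CCR8+ libraries lay inside it. The log2 difference of 1.04 (standard error 0.71) was below the SD of 1.25, and it was positive in pairs 1, 2 and 3 (2.26, 1.08 and 1.59) and negative in pair 4 (−0.78). It was between 0.54 and 1.74 with 1 library left out, the lowest without CCR8- replicate 1 and the highest without CCR8- replicate 4. On recovered reads it was 0.40 by edgeR and 0.39 by DESeq2.

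The macrophage and monocyte markers moved with *Hmox1* in part. Their sums were 86.7, 4452, 1500.0 and 83824 normalized counts in CCR8- replicates 1 to 4 and 28579, 19643, 3718 and 25636 in CCR8+ replicates 1 to 4. The 4 libraries lowest in *Hmox1* (CCR8- replicates 1 and 3, CCR8+ replicate 3 and CCR8- replicate 2) were also the 4 lowest in these markers, in the same order, and CCR8- replicate 4 was the highest in both. Among the other 3, CCR8+ replicates 1, 4 and 2, *Hmox1* rose in that order (636, 939 and 1159) while the marker sum fell. All 12 markers had a higher mean log2 level in CCR8+ cells, though none was called. The mean of normalized counts did not always go that way. It was higher in CCR8- cells for *Apoe* (5924 against 2306), *C1qa*, *C1qb*, *C1qc* and *Adgre1*, and higher in CCR8+ cells for the other markers. In CCR8- replicate 1, where *Hmox1* had 132 normalized counts, *Csf1r*, *Adgre1*, *Fcgr1* and *Itgam* were at 0. The other macrophage and monocyte markers were read there at 0.985 to 52.2 normalized counts. A 0 in that library says little, as it lacked every read of 242 genes that were well read in all others. The part of macrophage RNA in the *Hmox1* values was not tested.

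**Figure D2:**
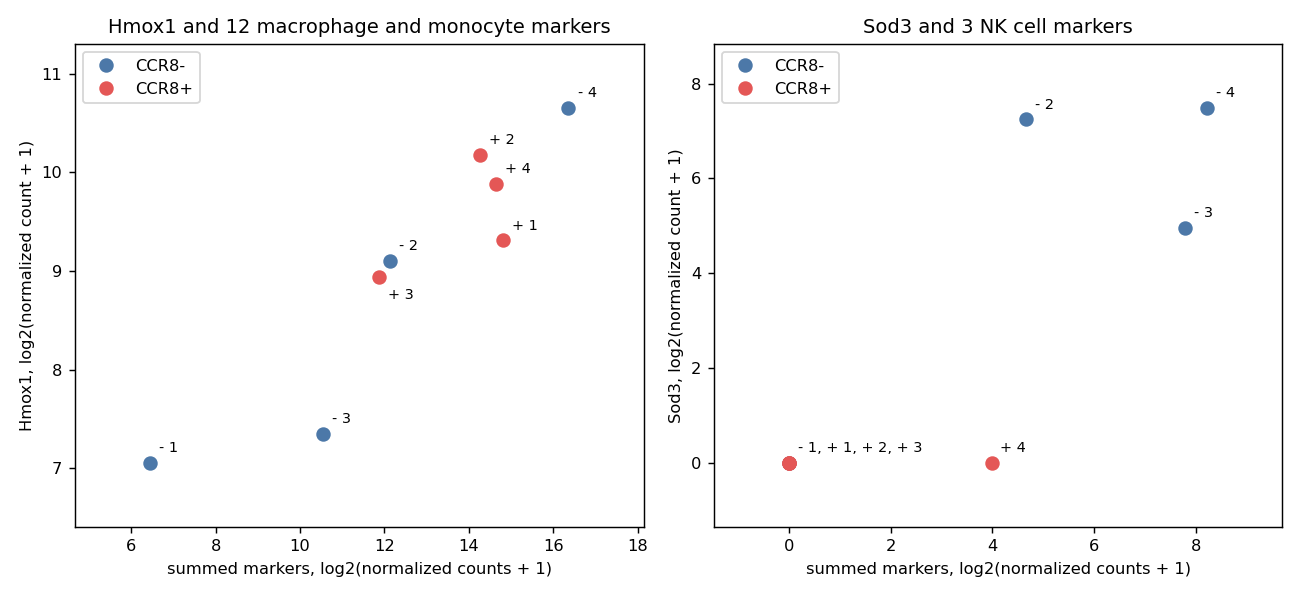
Left, *Hmox1* against the sum of 12 macrophage and monocyte markers; right, *Sod3* against the sum of 3 NK cell markers, in 8 libraries on log2(normalized counts + 1) axes. Points are single libraries, labelled by population sign and replicate number. *Hmox1* goes from 132 to 1609 normalized counts as the macrophage markers go from 86.7 to 83824, and *Sod3* is above 0 in 3 CCR8- libraries.

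Over the 9 intracellular members, the median log2 difference was 0.23, against 0.04 over all 11032 tested genes. The SD of their median level between libraries was 0.31. The single genes lay between −0.04 and 1.04, and none exceeded its own SD between libraries. In the same-numbered pairs the median over the 9 genes was 0.08, 0.29, 0.81 and 0.03, so that pair 3 was the largest. The CCR8+ library was higher for 5, 8, 6 and 6 of the 9 genes in pairs 1 to 4. Of the 10 members 7 had a difference above 0, as 52.4% of all tested genes did. None of the 10 separated the groups, compared with 4.4% of tested genes that did, and none was called by limma at an adjusted p under 0.05, a test that called 0 of 11032 genes (0%). *Ccr8* itself was not called, although each CCR8+ library was above every CCR8- library. A lack of calls is therefore no sign of equal levels. The number of genes at an unadjusted limma p under 0.05 was 562 (5.09%), and on recovered reads edgeR called 0 genes (0%) and DESeq2 26 (0.236%), with 0 of the members. With the choice of genes known, nothing is read from these member counts.

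**Figure D3:**
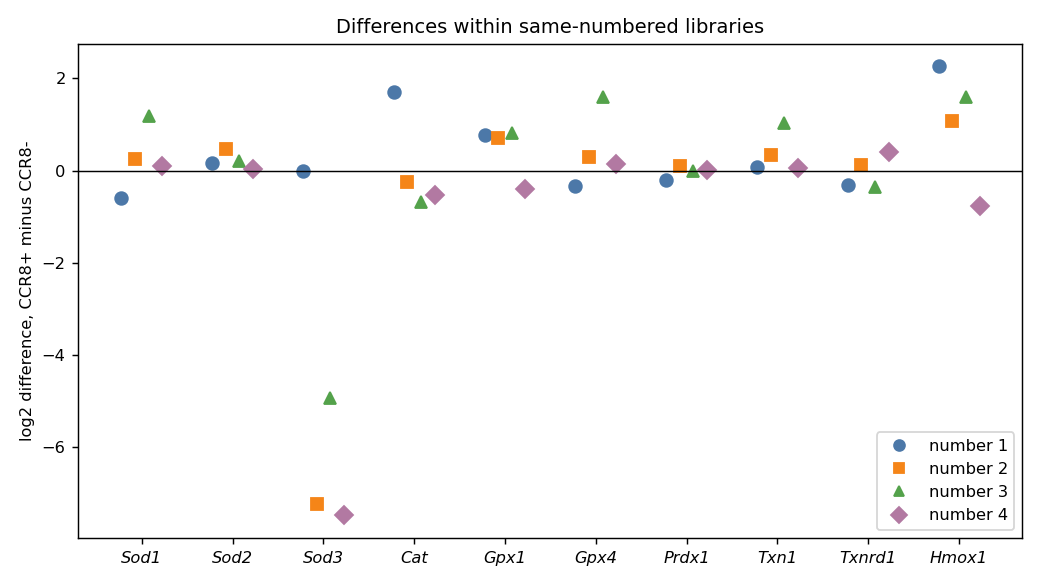
Log2 difference (CCR8+ minus CCR8-, on log2(normalized count + 1)) of each member within the 4 same-numbered library pairs, 1 symbol and color per number. *Sod3* is at −7.24, −4.95 and −7.49 in pairs 2, 3 and 4 and at 0 in pair 1, while *Prdx1* stays between −0.20 and 0.11.

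The wider antioxidant system was described from 8 lists of other genes, 149 in all, of which 130 were in the table and tested. Limma called none of the 130 in either direction (background 0%), nor did edgeR on the recovered reads. At an unadjusted limma p under 0.05 there were 5 genes higher and 2 lower in CCR8+ cells (background 2.8% and 2.29%). The median log2 difference over the 130 genes was 0.15 (0.04 over all tested genes), and 84 of them were above 0 (background 52.4%). The groups were separated for 3 of the 130 genes, all higher and none lower in CCR8+ cells (background 2.37% and 2.03%). DESeq2 called 0 of the 130, but it gave no adjusted p for several of them, *Ero1l*, *Dhodh* and *Nxn* among them. For those genes the lack of a DESeq2 call says nothing.

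The peroxiredoxin and thioredoxin list (18 of 21 genes tested, median log2 difference 0.13, none called) held the nearest relatives of the members. *Prdx6*, a peroxiredoxin that uses glutathione, had the highest mean of its list. Its mean was 8341 ± 2046 normalized counts for CCR8- and 6358 ± 1529 for CCR8+ cells (SD, n = 4 each), with the CCR8+ value the lower one in 4 of 4 pairs. Limma gave a log2 difference of −0.39 (standard error 0.25, adjusted p = 0.838). *Prdx2* followed with 4144 ± 749.5 and 4908 ± 795 (SD, n = 4 each). *Txnl1*, a thioredoxin-like protein of the proteasome, was one of the 3 genes with separated groups. It had 1517, 1939, 1468 and 1889 normalized counts in CCR8- and 2527, 1959.8, 2841 and 2486 in CCR8+ replicates 1 to 4. The gap between the groups was narrow, from 1939 to 1959.8, and limma gave a log2 difference of 0.53 (standard error 0.21, adjusted p = 0.838). *Nxn*, nucleoredoxin, had the largest difference of the list at −4.21 (standard error 1.70, limma adjusted p = 0.838), with 287, 56.6, 133 and 31.8 in CCR8- and 0, 49.5, 0 and 11.3 in CCR8+ libraries.

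In the glutathione list 25 of 26 genes were tested, with a median log2 difference of 0.17 and none called. *Slc3a2*, the shared heavy chain of amino acid transporters, and the transferase *Gstp1* had the highest means, at 10783 ± 1898 and 5058 ± 1088 normalized counts (SD, n = 4 each) in CCR8- cells and 11127 ± 3024 and 5286 ± 308 (SD, n = 4 each) in CCR8+ cells. *Gstz1* had the largest difference (−3.58, standard error 1.91, limma adjusted p = 0.838) and was at 0 in CCR8+ replicates 1 and 3. The genes of NADPH supply (15 of 16 tested, median 0.14, none called) were led by the pentose phosphate enzymes *Taldo1*, at 3759.8 ± 639 and 4035 ± 300.3 normalized counts (SD, n = 4 each) in CCR8- and CCR8+ cells, and *Tkt*, at 1953 ± 807 and 2700.5 ± 528 (SD, n = 4 each). *Nnt*, the mitochondrial transhydrogenase, had the largest difference of that list at −2.62 (standard error 1.54, limma adjusted p = 0.838), the CCR8+ value being the lower one in each of the 4 pairs, with 308, 212, 265 and 178 in CCR8- and 0, 68.0, 203 and 153 in CCR8+ libraries.

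The list of NRF2 control and target genes was the one with the median nearest to that of all genes, at 0.03 over 18 of 20 tested genes, with none called. *Sqstm1*, the autophagy adaptor p62 and an NRF2 target, had 10893 ± 3668 normalized counts in CCR8- and 14839.7 ± 3584 in CCR8+ cells (SD, n = 4 each). *Rbx1*, the RING subunit of the ligase that degrades NRF2, had 5164 ± 2009 and 4711 ± 522 (SD, n = 4 each). *Bach1*, a repressor of *Hmox1*, had the largest difference at 2.39 (standard error 1.57, limma adjusted p = 0.838), and was at 0 in CCR8- replicate 1, at 56.6, 38.6 and 63.6 in the other CCR8- libraries and at 142, 85.6, 262 and 33.1 in the CCR8+ libraries.

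Heme and iron genes (18 of 20 tested, median 0.26, none called) included the ferritin subunits. *Fth1* had 23689.6, 40546, 24635 and 90388 normalized counts in CCR8- and 37418, 37598, 35975 and 67311 in CCR8+ replicates 1 to 4. *Ftl1* was likewise highest in the replicates numbered 4, at 103197 for CCR8- and 68056 for CCR8+. The former was the library with the most *Hmox1* and the highest sum of macrophage markers. *Uros*, a heme synthesis enzyme, had the largest difference of the list at −2.56 (standard error 1.62, limma adjusted p = 0.838), with 0 in CCR8+ replicate 1 and at least 209.8 in every other library. In the metal and selenium list (15 of 16 tested, median −0.13, none called), the selenoprotein genes *Selk* and *Sepw1* had 6247 ± 3186 and 3584 ± 1599 normalized counts in CCR8- and 5045 ± 1000.1 and 2912 ± 587 in CCR8+ cells (SD, n = 4 each). *Sepsecs*, which completes selenocysteine on its transfer RNA, had the largest difference, at 2.99 (standard error 1.60, limma adjusted p = 0.838), with 0, 97.0, 161 and 7.95 in CCR8- and 202, 164, 167 and 99.2 in CCR8+ libraries.

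Among the sources of superoxide and hydrogen peroxide (11 of 18 tested, median 0.32, none called), *Rac2* and *Cyba*, parts of the NADPH oxidase, had the highest means. They were at 30188 ± 8303 and 16371 ± 6807 normalized counts in CCR8- and at 28179 ± 8469 and 13258 ± 2510.1 in CCR8+ cells (SD, n = 4 each). *Ero1l*, the oxidase that makes hydrogen peroxide while forming disulfides in the endoplasmic reticulum, was the second gene with separated groups. It had 4307, 3455, 3769 and 3154 normalized counts in CCR8- and 6722, 6193, 32664 and 5288 in CCR8+ replicates 1 to 4, a log2 difference of 1.34 (standard error 0.48, limma adjusted p = 0.838). Without CCR8+ replicate 3, the library that was far above the others, the difference was 0.73.

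The ferroptosis defence list had 10 of 12 genes tested, a median of 0.32 and none called. Its name does not describe every gene on it, *Lpcat3* among them, so the median is no measure of defence. *Lpcat3*, which places polyunsaturated fatty acids into membrane lipids, was higher in the CCR8+ library of 4 of 4 pairs, with 309, 899, 1441 and 559.9 normalized counts in CCR8- and 1753, 1371, 4796 and 986 in CCR8+ replicates 1 to 4. Its log2 difference was 1.41 (standard error 0.54, limma adjusted p = 0.838). *Dhodh*, a mitochondrial enzyme of pyrimidine synthesis that also limits lipid peroxidation, was the last gene with separated groups, at 344, 346, 374 and 221 in CCR8- and 656, 385, 577 and 581 in CCR8+ replicates 1 to 4. Its log2 difference was 0.77 (standard error 0.37, limma adjusted p = 0.838). *Gch1*, which makes the antioxidant cofactor tetrahydrobiopterin, had the highest mean beside *Lpcat3*, at 2020.2 ± 756 and 1958 ± 933 normalized counts (SD, n = 4 each) in CCR8- and CCR8+ cells. *Tfam*, the mitochondrial transcription factor, had the largest difference, 2.01 (standard error 1.32, limma adjusted p = 0.838), and CCR8- replicate 1 alone was low for it, at 3.94 normalized counts against at least 437 elsewhere.

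**Figure D4:**
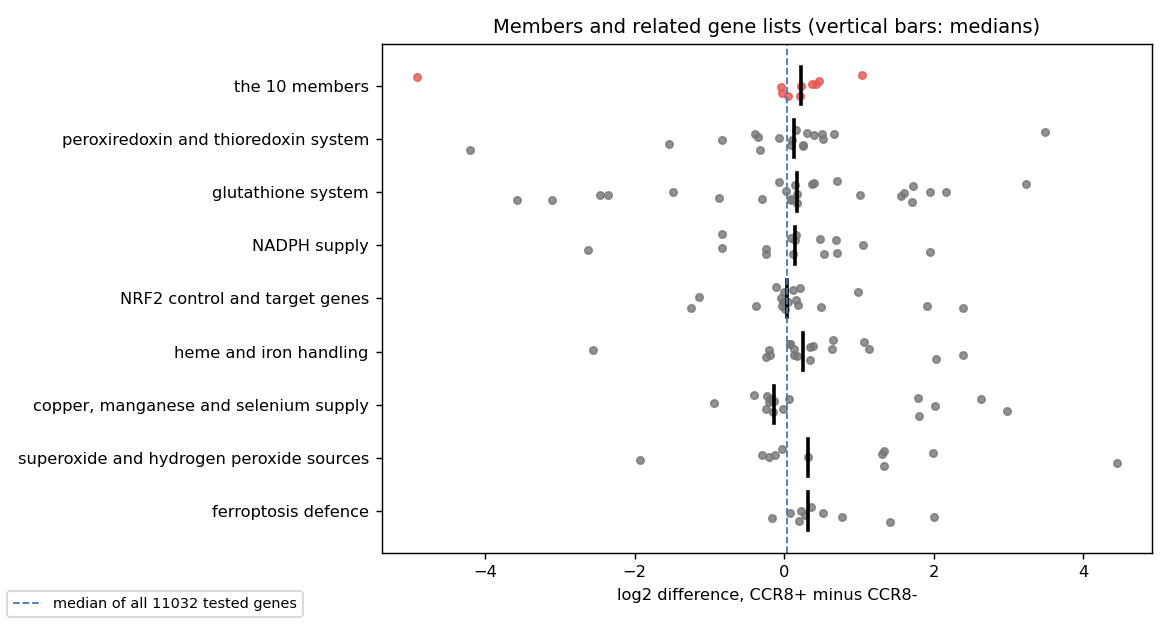
Log2 differences (CCR8+ minus CCR8-) of the 10 members and of the tested genes of 8 related lists, 1 point per gene, with black bars at the list medians and a dashed line at the median of all 11032 tested genes (0.04). List medians lie between −0.13 and 0.32, and the member far to the left is *Sod3*.

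Several genes with the largest difference of a list had libraries at or near 0. Without CCR8- replicate 1 the log2 difference was 1.56 for *Sepsecs*, 0.96 for *Bach1* and 0.29 for *Tfam*. Without CCR8+ replicate 1 it was −0.87 for *Nnt*, −0.57 for *Uros*, −2.37 for *Gstz1* and −3.44 for *Nxn*, and for *Gstz1* and *Nxn* it was the same without CCR8+ replicate 3. On recovered reads edgeR gave 1.23 for *Sepsecs*, 1.70 for *Bach1*, 0.67 for *Tfam*, −1.18 for *Nnt*, −1.21 for *Uros*, −1.18 for *Gstz1* and −3.02 for *Nxn*. Of the 130 genes, 5 had no read in CCR8- replicate 1 but 100 or more normalized counts in each other library, namely *Srxn1*, *Hmox2*, *Sephs2*, *Alas1* and *Ephx1*, which were singled out after their values were seen. *Srxn1*, the sulfiredoxin that repairs overoxidized peroxiredoxins, had 0, 164, 375 and 238 normalized counts in CCR8- and 291, 627, 1499.7 and 869.6 in CCR8+ replicates 1 to 4.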

How the data were processed

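Bulk RNA-Seq of 4 CCR8+ and 4 CCR8- CD4+ Tconv libraries was used, prepared with the Clontech SMARTer Ultra Low-input kit. The authors checked and trimmed reads with FastQC and Cutadapt, aligned them to NCBIM37 with hisat2 and used uniquely mapped reads; HTSeq and DESeq2 are also named in the processing notes, and versions are not given in the sources used here. The deposited signal, named FPM and normalized to library size and intergenic reads by the authors, held read counts divided by 1 factor per library: whole reads were recovered for 100.0% of values (tolerance 0.05 reads). How the 11233 genes were selected is not stated, and 0 columns of sample values were left out.

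Differences were fitted with limma 3.58.1 (R 4.3.3, intensity trend) on log2(value + 1) for 11032 genes (mean of 10 or more). P-values were adjusted by Benjamini and Hochberg, with a call at an adjusted p under 0.05. Recovered reads were tested with edgeR 4.0.16 and DESeq2 1.42.0 as alternatives, beside other scalings, pseudocounts, filters, variance models and leaving out each library. The scripts were tested on simulated data. The members and all gene lists were chosen with earlier results of these data known. Besides the members, genes were named if called, if their groups did not overlap, if they had the 2 highest means or the largest difference of a list, or the 5 highest correlations with *Sod3*; some items that this rule or the marker lists name are not reported here. Positions and lengths come from GENCODE M21 (GRCm38), a different build from the alignment and serve to locate genes and set levels per length, and promoters from RefSeq.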

Additional observations from a re-analysis of the deposited data

Results flagged for a closer look

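In 73 groups of 4 libraries (members and named genes), the gap between 1 library and the nearest of the other 3 on log2(normalized count + 1) exceeded Dixon's 95% critical share of the range in 8. Chance gives about 1 in 20 for groups taken at random, which is not the rate here, because several genes were named for a large or separated difference that such a library helps to make. None of the 8 was a group of one of the 10 antioxidant members. The lowest library was CCR8- replicate 1 for *Bach1* (0 against 38.6 to 63.6 normalized counts, share of the range 0.8826) and *Tfam* (3.94 against 437 to 726, share 0.898). It was CCR8+ replicate 1 for *Gstp1* (4830.0 against 5377 to 5497, share 0.8294) and *Uros* (0 against 209.8 to 281, share 0.948). CCR8+ replicate 3 was the highest for *Ero1l* (32664 against 5288 to 6722, share 0.868) and the lowest for *Gch1* (609 against 2102 to 2706, share 0.8304). CCR8+ replicate 4 was the highest for *Fth1* (67311 against 35975 to 37598, share 0.93), and CCR8- replicate 4 the lowest for *Dhodh* (221 against 344 to 374, share 0.84).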

How the results depend on the processing

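None of the 10 members was called under any setting. The median log2 difference of the 9 intracellular members was positive throughout, between 0.17 and 0.43 with 1 library left out. *Cat*, *Prdx1* and *Txnrd1* changed sign when single libraries were left out (ranges −0.26 to 0.28, −0.16 to 0.10 and −0.13 to 0.09). *Sod3* stayed below 0, between −6.56 and −4.06 with 1 library left out, and was not tested at a mean of at least 100. Its fitted value was −2.56 with a pseudocount of 10, −7.40 with 0.1, −9.59 by edgeR and −8.97 by DESeq2. The CCR8+ libraries held 0 *Sod3* reads, so no fitted value of *Sod3* in this section gives the size of the difference. The cause of the difference between tools was not tested.

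Over all genes limma called 0, limma without the intensity trend 2 and DESeq2 26 genes. Adding a replicate block gave 1 called gene in limma, 0 in edgeR and 124 of 11032 in DESeq2, the last including 2 of the 130 pathway genes, one of them *Lpcat3* (log2 difference 1.41, adjusted p = 0.0497); *Sod3* was at −9.29 by edgeR and −8.13 by DESeq2 with this block. The labels do not say what a shared number means. Deviations of same-numbered libraries correlated between 0.0682 and 0.217, over 0.1 in 3 of 4 pairs, and those of other pairs between −0.171 and 0.101. Of the 8 libraries 7 correlated best with their own number. These values lean toward a link between same-numbered libraries. As the labels do not state one, pairing was treated as not established.

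Named genes near 0 changed sign, none of them called. *Slc3a2* was at −0.049 with 1 total per library, *Ftl1* at −0.10 by edgeR and −0.10 by DESeq2, and *Fth1* at −0.0083 by edgeR and −0.012 by DESeq2. With 1 library left out the ranges were −0.11 to 0.16 for *Slc3a2*, −0.031 to 0.19 for *Gstp1*, −0.0035 to 0.18 for *Taldo1*, −0.34 to 0.16 for *Rbx1*, −0.15 to 0.50 for *Ftl1*, −0.062 to 0.58 for *Fth1*, −0.44 to 0.10 for *Selk*, −0.36 to 0.045 for *Sepw1*, −0.26 to 0.12 for *Rac2* and −0.45 to 0.34 for *Gch1*. The cause of these changes was not tested.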
